A study of Mus musculus with 24 samples.

Results

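Interferon-stimulated genes that lie outside the antigen presentation pathway were followed across 12 cultures of mouse primary muscle cells. The set was a list of 38 gene symbols, and a probe set was taken for a gene when the chip annotation gave it that gene and no other. Of the 38 genes, 35 had such a probe set among the 18193 genes with a probe set of their own, with 57 probe sets in all. The list was divided by known function into 33 genes of type I interferon style (transcription factors, nucleic acid sensors, antiviral effectors and regulators, and the PYHIN family) and 5 GTPases best known as targets of interferon gamma.

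Type I interferons bind the IFNAR receptor and, through the kinases JAK1 and TYK2, activate transcription factors, STAT2 and IRF9 among them, that bind the interferon-stimulated response element (ISRE) in the promoters of their targets. Interferon gamma binds another receptor and acts mainly at the gamma-activated site (GAS). Cytosolic nucleic acid sensors of the RIG-I family start the same program from inside the cell, and many sensors and transcription factors of the pathway are themselves interferon-induced.

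The cells were derived from satellite cells, the stem cells of skeletal muscle. Wild-type myoblasts (cultures A to C) and Rb-null myoblasts (cultures D to F), which lacked the retinoblastoma protein while dividing and which the labels call defective in differentiation, grew in Ham's F-10 with 20% fetal bovine serum and bFGF. Myotubes were collected on day 6 of differentiation in DMEM with 5% horse serum and antibiotics, from wild-type cells (cultures G, H and I) and from cells with floxed Rb and an MCK-cre transgene (J, K and L). MCK is muscle creatine kinase, and its promoter is switched on as muscle cells differentiate. Both myotube groups came from 3 independent cell lines each, and the myoblasts were biological triplicates. The labels give a purity of 99 to 100% with fibroblasts as the other cell type, and they give no mouse strain or age. Each culture was measured once on each of 2 chip types, MOE430A and MOE430B. Since RNA was taken from whole cultures, fewer cells of a type and less RNA per cell cannot be told apart.

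The promoters show which of the interferon-response sequences the genes carry. RefSeq promoter windows (assembly GRCm38.p6) were found for 32 of the 38 genes, and the 250 bases before each gene start were searched on both strands for the ISRE core (GAAA, any 2 bases, GAAA), the GAS core (TTC, any 3 bases, GAA) and the E2F site (TTT, then G or C, then GCGC). The ISRE core was present in 13 of 32 genes (40.6%), against 3.46% of 27025 genes with a promoter in the same table, and the GAS core in 7 (21.9%), against 8.13%. No E2F site of these spellings was found in the 32 genes, against 0.759% of all genes. With so low a share, 0 of 32 genes cannot show a lack of such sites. All 4 GTPases with a promoter entry held the ISRE core, as did 9 of 28 type I style genes. For 6 genes described below the window is shown, 5′ to 3′ in the direction of transcription and ending at the base before the gene start. Capitals mark the ISRE and GAS cores, which overlap each other in Bst2. Of the genes called higher below in MCK-cre Rb-flox than in wild-type myotubes, Usp18 and Ifi27 had no promoter entry. The ISRE core was in 2 of the 10 others, Ifit1 and Rsad2, and in 6 of 13 tested but uncalled members. The difference between these shares was not tested. Bst2 and Igtp carry both cores. Ifi202b and Ifi35 gave the highest fold changes without an ISRE core among genes with a promoter entry. The windows are, in this order, Ifit1 (plus strand, chr19:34640639-34640888), with ISRE cores 104 and 85 bases before the start, Rsad2 (minus strand, chr12:26456453-26456702), with an ISRE core at 120, Bst2 (minus strand, chr8:71537473-71537722), with ISRE cores at 130 and 124 and a GAS core at 136, Igtp (plus strand, chr11:58199306-58199555), with an ISRE core at 34 and a GAS core at 45, Ifi202b (minus strand, chr1:173982845-173983094), with a GAS core at 148, and Ifi35 (plus strand, chr11:101448162-101448411), which held none of these letters.
Ifit1: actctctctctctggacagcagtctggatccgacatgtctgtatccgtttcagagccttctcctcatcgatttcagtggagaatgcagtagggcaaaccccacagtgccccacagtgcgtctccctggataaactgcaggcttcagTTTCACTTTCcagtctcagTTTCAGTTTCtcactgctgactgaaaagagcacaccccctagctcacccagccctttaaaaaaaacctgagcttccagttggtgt
Rsad2: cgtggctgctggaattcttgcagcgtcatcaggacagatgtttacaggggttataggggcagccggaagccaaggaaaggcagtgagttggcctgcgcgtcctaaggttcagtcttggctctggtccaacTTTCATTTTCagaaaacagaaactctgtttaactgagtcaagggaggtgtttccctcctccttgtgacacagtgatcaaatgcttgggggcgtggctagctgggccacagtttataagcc
Bst2: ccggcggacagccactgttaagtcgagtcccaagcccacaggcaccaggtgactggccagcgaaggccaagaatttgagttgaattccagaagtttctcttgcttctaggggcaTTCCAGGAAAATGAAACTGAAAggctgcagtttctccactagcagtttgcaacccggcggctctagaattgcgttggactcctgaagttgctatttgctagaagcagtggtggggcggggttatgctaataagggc
Igtp: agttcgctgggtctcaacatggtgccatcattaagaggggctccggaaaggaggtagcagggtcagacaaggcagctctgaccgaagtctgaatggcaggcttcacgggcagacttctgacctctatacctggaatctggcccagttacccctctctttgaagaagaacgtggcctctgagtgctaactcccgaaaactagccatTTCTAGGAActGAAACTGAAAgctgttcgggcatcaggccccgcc
Ifi202b: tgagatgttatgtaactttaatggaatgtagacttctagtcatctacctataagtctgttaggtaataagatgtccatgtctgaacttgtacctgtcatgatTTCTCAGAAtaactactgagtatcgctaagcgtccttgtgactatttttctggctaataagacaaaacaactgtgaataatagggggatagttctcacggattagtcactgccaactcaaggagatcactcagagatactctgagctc
Ifi35: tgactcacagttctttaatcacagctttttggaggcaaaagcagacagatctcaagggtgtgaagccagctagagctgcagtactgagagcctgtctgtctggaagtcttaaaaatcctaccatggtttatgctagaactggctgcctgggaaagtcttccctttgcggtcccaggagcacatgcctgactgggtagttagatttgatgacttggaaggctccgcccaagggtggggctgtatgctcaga

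The deposited values were intensities per probe set, and each array had been scaled to the same trimmed mean. The Rb1 probe set read 3265 to 3664 in the wild-type myotubes and 590 to 802 in the MCK-cre Rb-flox myotubes, a 4.33-fold difference (limma adjusted p = 0.000723), and 260 to 712 in the Rb-null myoblasts. No gene was called between Rb-null and wild-type myoblasts (0 of 14331), so Rb1 itself was not called there. All 6 myotube cultures were scanned on the last scan day of each chip type together with wild-type myoblast culture B, while the other 5 myoblast cultures were scanned earlier. The 18S rRNA control of MOE430A read 11086 to 25244 in the 7 cultures of the last day and 483 to 891 in the other 5. The ratio of 3′ to 5′ signal of the beta-actin control on MOE430A was 0.422 to 0.593 in the wild-type and 0.809 to 0.965 in the MCK-cre Rb-flox myotubes, while the Gapdh ratio overlapped between these groups (0.793 to 0.867 and 0.765 to 0.871). The part of these control signals in the results below was not tested.

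The median of the type I style genes was high in the MCK-cre Rb-flox myotubes and near the wild-type myoblast level in the other 3 groups, although single genes departed from it, and the 3 Rb-flox cultures differed among themselves. For each culture, the median over genes of the log2 difference from the wild-type myoblast mean was taken, over every member with a probe set. Over the 30 type I style genes this median lay between -0.17 and 0.20 in the myoblasts of both genotypes and between -0.16 and 0.10 in the wild-type myotubes. It was 1.58 in culture J, 0.60 in culture K and 1.57 in culture L. Over the 5 GTPases it was -0.42 to 0.46 in the wild-type and -0.34 to 0.21 in the Rb-null myoblasts, 0.91, 0.36 and 0.54 in wild-type myotubes G, H and I, and 1.91, 0.92 and 1.84 in J, K and L. Over all 18193 genes the median of a culture lay between -0.06 and 0.19.

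**Figure D1:**
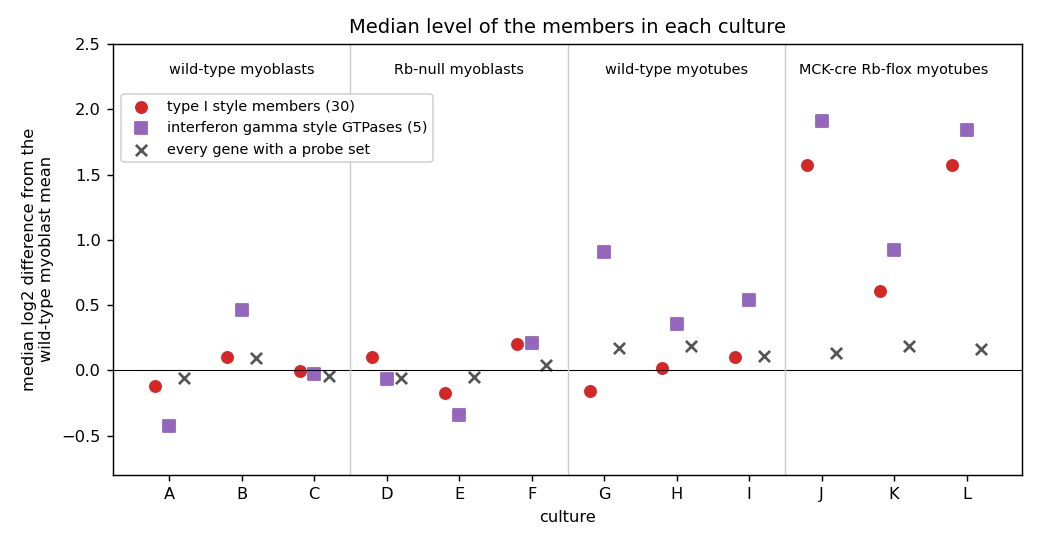
Each point is the median over genes, in 1 culture, of the log2 difference from the mean of the 3 wild-type myoblast cultures, for 30 type I style members (circles), 5 GTPases (squares) and every gene with a probe set (crosses). Cultures J and L stand at 1.58 and 1.57 for type I style genes and culture K at 0.60, while the 9 other cultures lie between -0.17 and 0.20.

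Set against the wild-type myotube mean instead, the median over the 35 members was 1.41 in culture J, 0.39 in K and 1.35 in L, with -0.03, 0.03 and 0.01 over all genes. Culture J lay above all 3 wild-type myotube cultures for 29 of 35 members, where 28.0% of all genes did so. Culture K did so for 19 of 35 (32.7% of all genes) and culture L for 31 of 35 (30.5%). Culture K was the lowest of the 3 Rb-flox cultures for 28 of 35 members, against 34.9% of all genes, J for 3 (34.2%) and L for 4 (30.9%). The Rb1 intensity was 685 in J, 802 in K and 590 in L, so it was highest in K, and its part in the split was not tested. Cdk1, the mitotic cyclin-dependent kinase gene, read 8857, 8849 and 8328.

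**Figure D2:**
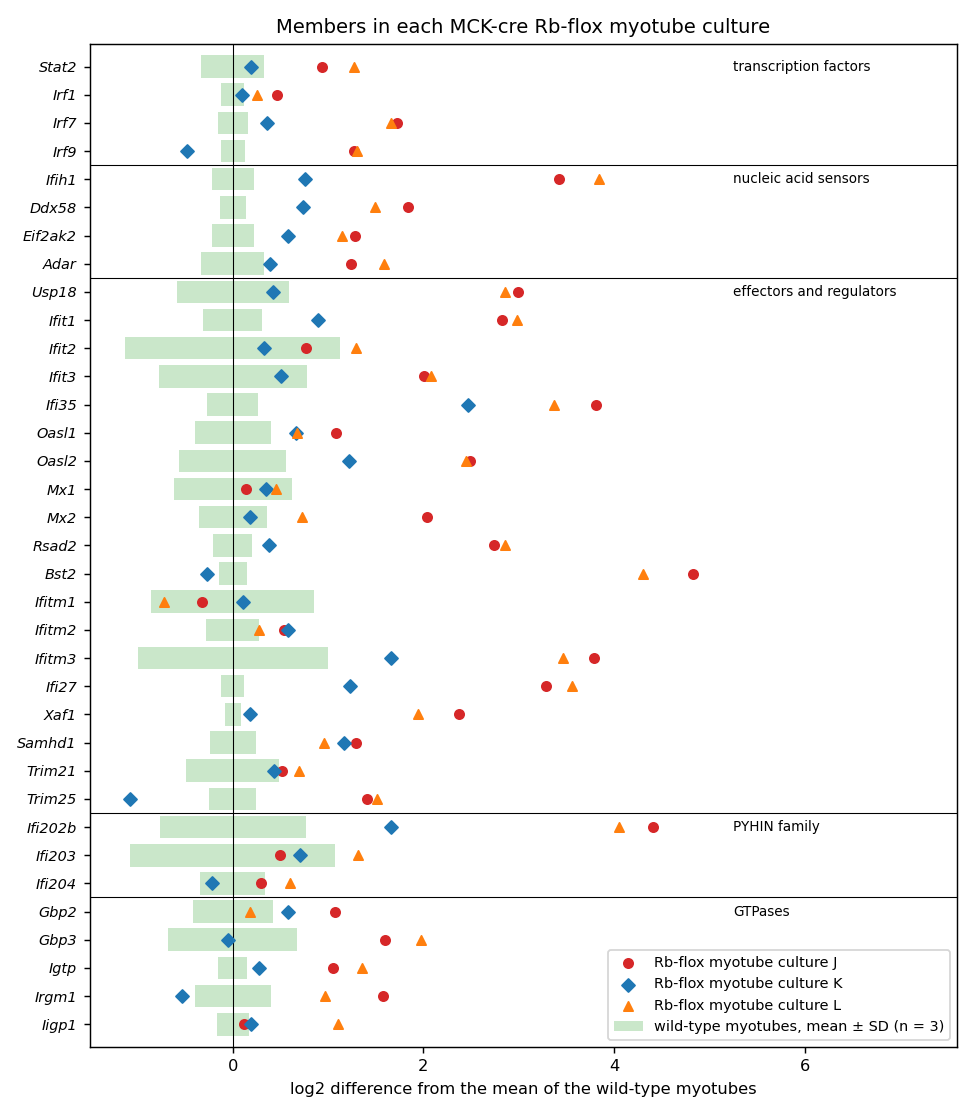
Log2 difference of each Rb-flox myotube culture from the mean of the 3 wild-type myotube cultures, for the 35 members with a probe set, in order of role; green bars span the mean ± SD of the wild-type myotubes. Culture K (diamonds) is the lowest of the 3 cultures for 28 of 35 members, and it lies below the wild-type mean for Irf9, Bst2, Trim25, Ifi204, Gbp3 and Irgm1.

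Tests across genes covered the 26 members whose probe set passed a filter on dim signal. Against wild-type myotubes, 12 of the 26 were higher in the MCK-cre Rb-flox myotubes at an adjusted p under 0.05 (7.03% of the 14331 genes tested were called higher) and none was lower (4.49% of all genes). At an unadjusted p under 0.05 there were 18 of the 26, and the share of all genes at that rule is not given here. All 3 Rb-flox cultures lay above all 3 wild-type ones for 15 of the 26, against 14.8% of all genes. The median log2 difference over the 26 was 1.04, with 0.01 over all genes tested. The 12 called genes were Irf7, Ddx58, Eif2ak2, Usp18, Ifit1, Ifi35, Rsad2, Ifitm3, Ifi27, Xaf1, Samhd1 and Ifi202b, all of type I style (12 of 23 tested), and none of the 3 GTPases tested was called, a contrast between the classes that was not tested. Fitted without the filter, so that all 35 members entered, 14 were called higher (5.35% of 18193 genes), the same 12 with Ifih1 and Oasl2. Leaving out culture K raised the count among the 26 from 12 to 16, adding Stat2, Adar, Igtp and Irgm1. Leaving out J, L or wild-type culture I lowered it to 7, each time without Irf7, Eif2ak2, Usp18, Rsad2 and Xaf1, and the fit of the cultures of the last scan day alone also gave 7. Without wild-type culture G or H the count was 8. The shares of all genes called in these fits are not given here, so the counts describe the members alone.

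**Figure D3:**
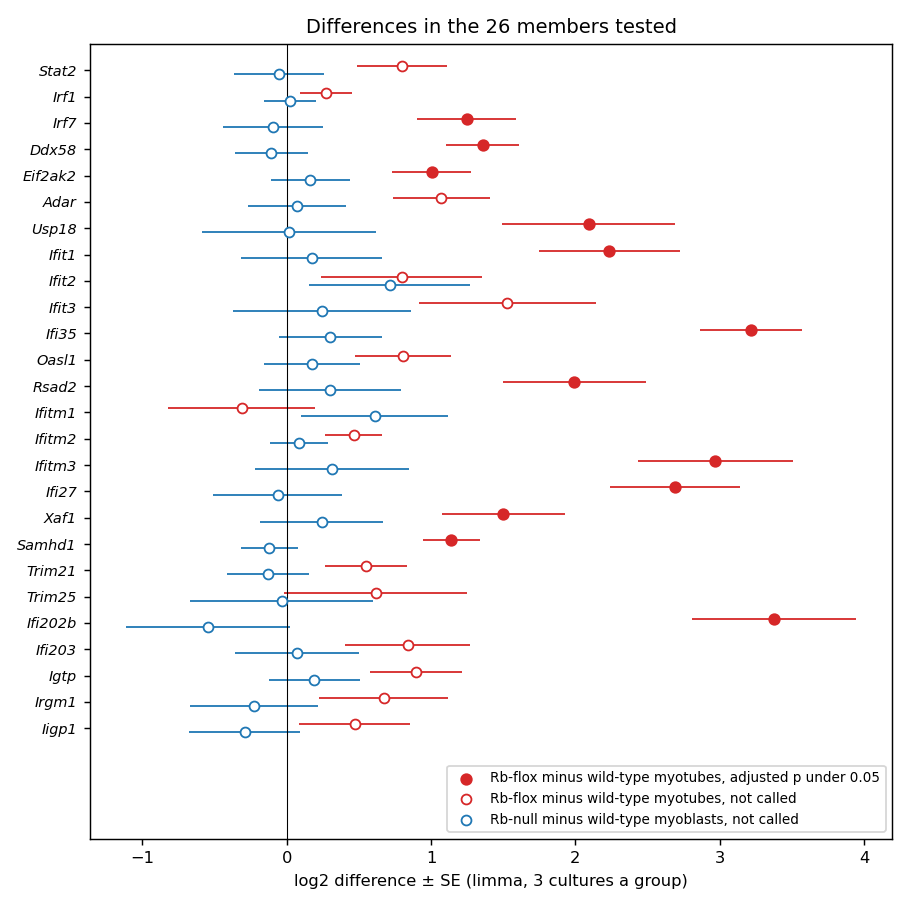
Log2 differences with their standard errors (limma, 3 cultures per group) for the 26 members tested, Rb-flox minus wild-type myotubes in red and Rb-null minus wild-type myoblasts in blue; filled points passed an adjusted p under 0.05. The 12 filled points are all in the myotube comparison, and none of the 26 passed in myoblasts.

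Among the transcription factors, Irf7, the regulator that amplifies type I interferon production, rose 2.37-fold (log2 1.25, SE 0.35, adjusted p = 0.0332). It read 844, 1046 and 846 in the wild-type myotubes and 3298, 1197 and 3151 in J, K and L, so that K lay just above the wild-type range. Stat2, a subunit of the complex that binds the ISRE, read 929, 939 and 586 against 1652, 937 and 2116, and did not pass (adjusted p = 0.128). Its other probe set, under the filter, read 62.3 to 305 against 924, 305 and 977 and passed in a fit over all probe sets without a filter (log2 1.65, adjusted p = 0.0305). Irf9, its DNA-binding partner, stayed under the filter on dim signal, with 366 to 454 in wild-type myotubes and 1191, 264 and 1219 in J, K and L. Irf1, an activator of both interferon branches, read 2597 to 3081 against 3994, 3051 and 3425 (adjusted p = 0.406). Within this group of genes, Irf7 alone was called.

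The sensors were likewise lowest in culture K among the 3 Rb-flox cultures. Ddx58, which encodes the RNA sensor RIG-I, rose 2.56-fold (log2 1.36, SE 0.25, adjusted p = 0.00385), from 2939, 2438 and 2885 in the wild-type myotubes to 10368, 4720 and 8107 in J, K and L, with no overlap between the groups. In the fit over all probe sets, another of its probe sets rose too (log2 1.28, adjusted p = 0.028). A further Ddx58 probe set did not pass (log2 0.79, adjusted p = 0.426), with K at 319 inside the wild-type range of 221 to 803. Eif2ak2, the RNA-activated kinase PKR that halts translation, rose 2.01-fold (adjusted p = 0.0319), from 505, 730 and 595 to 1657, 970 and 1494. Over all probe sets, another of Eif2ak2 passed (log2 2.13, adjusted p = 0.0102) and a further one did not (log2 1.11, adjusted p = 0.0711). Adar, the RNA-editing adenosine deaminase, read 287 to 512 against 1032, 519 and 1348 (adjusted p = 0.0583), and its other 2 probe sets that were tested did not pass either. Ifih1, the RNA sensor MDA5, was at 85.2, 35.7 and 34.1 in the wild-type myotubes, under the offset of 130 added before taking logs, and at 1797, 176 and 2453 in J, K and L. In the fit without a filter the log2 difference of Ifih1 was 2.67 (SE 0.58, adjusted p = 0.0125), a size that the offset understates.

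The IFIT genes, whose products bind foreign RNA, and the other cytosolic effectors gave the following values. Ifit1 rose 4.71-fold (log2 2.23, SE 0.49, adjusted p = 0.00991), from 414, 634 and 381 in the wild-type myotubes to 4090, 982 and 4589 in J, K and L. Ifit3 read 149 to 682 against 1703, 519 and 1797 (adjusted p = 0.139), and Ifit2 read 102 to 915 against 815, 567 and 1223 (adjusted p = 0.430). The promoter of Ifit1 shown above holds the ISRE core in 2 places, and so does that of the uncalled Ifit3. Rsad2, viperin, an enzyme that makes a chain-terminating nucleotide, rose 3.98-fold (adjusted p = 0.0188), from 802, 576 and 643 to 5215, 909 and 5661, and its second filtered-in probe set rose too (adjusted p = 0.0349 in a fit over all probe sets). Culture K was just above the wild-type range for Rsad2 and the lowest of the 3 Rb-flox cultures for each of these genes.

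Ifi35, which encodes a leucine zipper protein of the interferon response, rose 9.30-fold (log2 3.22, SE 0.36, adjusted p = 9.01e-05). It read 233, 198 and 124 in the wild-type myotubes and 4243, 1591 and 3098 in J, K and L, so all 3 Rb-flox cultures were far above the wild-type ones. Its other 2 probe sets also rose, by 1.98 and 0.72 on the log2 scale (adjusted p = 0.000365 and 0.0429 over all probe sets). Ifi35 kept its call under each of the 12 alternative settings and each of the 12 fits that left out a culture. Usp18, the protease that removes ISG15 from proteins and damps the receptor, rose 4.26-fold (adjusted p = 0.0398), from 374, 102 and 297 to 2808, 365 and 2528, and culture K lay inside the wild-type range. Isg15 itself, a ubiquitin-like modifier, and Ifi44 had no probe set of their own, so no value is given.

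Of the oligoadenylate synthetase-like genes and the Mx GTPases, Oasl1 alone passed the filter. Oasl1, a regulator of Irf7 translation in mice, read 426 to 817 in wild-type myotubes and 1345, 968 and 978 in J, K and L (adjusted p = 0.147). Oasl2 was under the filter, at 27.9, 38.7 and 190 against 1013, 345 and 983, and passed in the fit without one (log2 2.05, SE 0.38, adjusted p = 0.00518). Mx1 and Mx2, dynamin-like GTPases that block viruses, stayed under the filter. Mx1 read 63.6 to 323 against 209, 261 and 291, and Mx2 read 49.8 to 147 against 722, 107 and 215 (adjusted p = 0.742 and 0.143 without a filter).

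Bst2, tetherin, which holds budding virions at the cell surface, was split between the Rb-flox cultures. It read 62.8, 106 and 80.9 in the wild-type myotubes, 5888 in J, 46.6 in K and 4057 in L, and 46.7 to 159 in the 6 myoblast cultures. Culture K was thus below all wild-type myotube cultures and under the offset, while J and L were the only cultures of the 12 with a signal above it other than 2 Rb-null ones (134 in D and 159 in E). In the fit without a filter its log2 difference was 2.95 with an SE of 0.93 (adjusted p = 0.0722), so the group comparison did not pass.

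**Figure D4:**
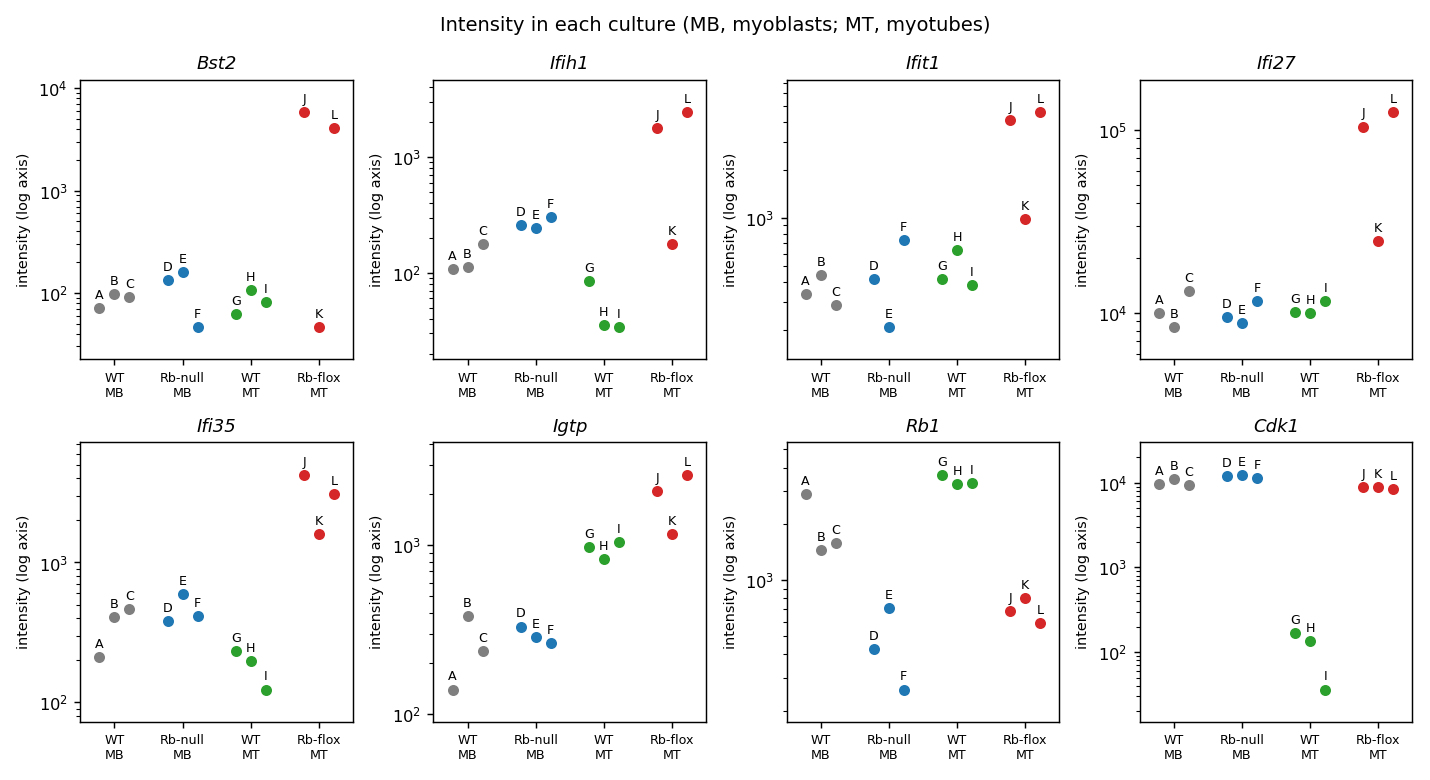
Intensity of 6 members, of Rb1 and of Cdk1 in each of the 12 cultures on a log axis; each panel has its own scale. For Bst2 culture K (46.6) lies with the wild-type cultures and J (5888) and L (4057) far above, for Ifi35 all of J, K and L lie above every other culture, and Rb1 reads 685, 802 and 590 in J, K and L.

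The IFITM proteins, which block virus entry at membranes, did not move together. Ifitm3 rose 7.82-fold (log2 2.97, SE 0.54, adjusted p = 0.00329), from 7090, 1692 and 3906 in wild-type myotubes to 51673, 11717 and 41306 in J, K and L. Ifitm2 read 4652 to 6783 against 7939, 8175 and 6608 (adjusted p = 0.167), and Ifitm1 read 260 to 1144 against 428, 625 and 295 (adjusted p = 0.782), the 1 member of the 26 with a value below the wild-type mean. Ifi27, a mitochondrial protein of the interferon response, rose 6.46-fold (log2 2.69, SE 0.45, adjusted p = 0.00194), from 10080, 9936 and 11556 to 104522, 24852 and 125555. Its other probe set rose more, 23.3-fold (log2 4.54, adjusted p = 0.000267 over all probe sets). For Ifitm3 and Ifi27, culture K was above all wild-type myotube cultures and below J and L.

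Xaf1, an antagonist of the apoptosis inhibitor XIAP, rose 2.83-fold (adjusted p = 0.0375), from 3895, 4243 and 4372 to 22426, 4739 and 16643. Its other probe set did not pass (log2 0.51, adjusted p = 0.243 over all probe sets), so its probe sets disagree in size, and the Xaf1 call was lost with scan day as a block, under median centring and without the variance trend. Samhd1, which breaks down the nucleotides that viruses need, rose 2.20-fold (log2 1.14, SE 0.20, adjusted p = 0.00253), from 673, 838 and 990 to 2217, 2013 and 1723, and here culture K lay between J and L. The other 3 Samhd1 probe sets that were tested did not pass (log2 0.19 to 0.61), and the call was lost when the probe sets were averaged. Trim21, an intracellular antibody receptor, read 468 to 1034 against 1029, 967 and 1177 (adjusted p = 0.262). Trim25, the ubiquitin ligase that activates RIG-I, read 798 to 1167 against 2826, 397 and 3035 (adjusted p = 0.619), with K below all 3 wild-type myotube cultures.

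Of the PYHIN family, DNA-binding proteins encoded in a cluster on mouse chromosome 1, Ifi202b rose 10.4-fold in the Rb-flox myotubes (log2 3.37, SE 0.57, adjusted p = 0.00209). It read 336, 348 and 57.8 in the wild-type myotubes and 7259, 966 and 5645 in J, K and L. This was also the member that fell most from wild-type myoblasts (2986, 2119 and 2582) to wild-type myotubes. Its 1 probe set ends in _s_at, a mark for probes that several transcripts may share. Ifi203 read 545 to 2763 against 2289, 2663 and 4169 (adjusted p = 0.258), Ifi204 stayed under the offset of 130 in each of the 12 cultures except A (186) and E (148), and Ifi205 had no probe set of its own.

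The GTPases defend against intracellular parasites and bacteria. Igtp (Irgm3) read 971, 826 and 1049 in wild-type myotubes and 2106, 1169 and 2618 in J, K and L, with no overlap between the groups (log2 0.89, SE 0.32, adjusted p = 0.0920), and it passed without culture K. Irgm1, its regulatory relative, read 622 to 1120 against 2959, 582 and 1895 (adjusted p = 0.40). Iigp1 read 818 to 1041 against 1042, 1105 and 2205, where L stood apart from the other 2 (adjusted p = 0.509). Gbp2 and Gbp3, guanylate-binding proteins, stayed under the filter, Gbp2 at 163 to 370 against 731, 483 and 333 and Gbp3 at 22.1 to 240 against 526, 79.6 and 726. Thus J was above all wild-type myotube cultures for 5 of 5 GTPases (28.0% of all genes), L for 4 (30.5%) and K for 3 (32.7%), without a called difference between the groups. For Iigp1, however, J (1042) was level with the highest wild-type culture (1041).

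In myoblasts no called difference in the set went with the lack of Rb, at 3 cultures per group. The standard errors used a variance per gene pooled over all 4 groups, so they are not the error of the myoblasts alone. None of the 26 members was called between Rb-null and wild-type myoblasts, and limma called no gene (0 of 14331, 0%). Since Rb1 itself was not called, the lack of calls says little about the members. At an unadjusted p under 0.05 there were 0 of the 26, and the share of all genes at that rule is not given here. The median log2 difference was 0.07 (-0.01 over all genes). The largest rise, of Ifit2, had an estimate of 0.71 (SE 0.56) and the largest drop, of Ifi202b, of -0.54 (SE 0.57), and standard errors over the 26 ran from 0.18 to 0.64. Ifi202b read 1477, 1845 and 1805 in D, E and F, all below the 2119 to 2986 of the wild-type myoblasts.

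During wild-type differentiation, 3 of the 26 members rose (14.5% of all genes were called higher) and 3 fell (15.5% were called lower), and the median log2 difference was 0.14, as over all genes. Igtp rose 2.90-fold (log2 1.54, SE 0.32, adjusted p = 0.00285), from 140, 380 and 237 in myoblasts to 971, 826 and 1049, Xaf1 2.43-fold (adjusted p = 0.0370) and Irf1 1.52-fold (adjusted p = 0.0230). Ifi202b fell 7.68-fold (log2 -2.94, SE 0.57, adjusted p = 0.00187), Ifitm2 2.04-fold (adjusted p = 0.00189) and Samhd1 1.96-fold (adjusted p = 0.00265). The other Samhd1 probe sets that were tested did not pass (log2 -0.30, 0.71 and 0.04), and averaging the probe sets lost this call. In the fit over all probe sets, Xaf1's other probe set did not pass (log2 0.20, adjusted p = 0.563). Probe sets not chosen for their genes fell for Ifi27 (log2 -1.64, adjusted p = 0.0461) and Adar (log2 -1.02, adjusted p = 0.00312). The other GTPases tested did not pass, with Irgm1 at a log2 difference of 0.35 and Iigp1 at 0.73 (adjusted p = 0.573 and 0.163). Leaving out culture C, G or H ended the calls of both Irf1 and Xaf1. Among the myoblasts, only culture B shared a scan day with the myotubes. For the fits that take up scan day, the shares of all genes called are not given here. With scan day as a block 2 members were called, Ifitm2 and Samhd1, and with culture B as the only myoblast culture 0, so scan day and differentiation can barely be told apart here.

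Rb-flox myotubes were also set against Rb-null myoblasts, a comparison that shares the Rb-flox cultures with the one above. Of the 26, 14 were higher (9.60% of all genes) and 1, Ifitm2, was lower (9.42%), with a median log2 difference of 1.15 and 0.16 over all genes. Igtp was 4.72-fold higher (log2 2.24, SE 0.32, adjusted p = 0.000745), Ifi27 6.84-fold (adjusted p = 0.00160) and Xaf1 5.80-fold (adjusted p = 0.00197). The transcription factors Stat2 (3.03-fold), Irf7 (3.99-fold) and Irf1 (1.81-fold) were called, as was the GTPase Iigp1 (2.82-fold). Without culture J or L 9 members were called, without D or E 10 and without K 17. The shares of all genes called in these fits are not given here, so the counts describe the members alone. No Rb-null culture was scanned with the myotubes, and with scan day as a block 0 of the 26 were called, so scan day and the difference between these groups cannot be told apart.

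The difference between the Rb effects, in myotubes minus in myoblasts, was tested as an interaction. Medium and the way Rb was removed differed between the stages as well, so they cannot be told apart from stage. The interaction was read over the same 26 members. The interaction was above 0 for 25 of the 26, with a median of 0.95 (0.03 over all genes), and 4 members were called higher (1.51% of all genes) and 0 lower (0.747%). At an unadjusted p under 0.05 there were 10, and the share of all genes at that rule is not given here. The called members were Ifi202b (log2 3.92, SE 0.80, adjusted p = 0.0241), Ifi35 (2.91, SE 0.50, adjusted p = 0.00918), Ifi27 (2.75, SE 0.63, adjusted p = 0.0416) and Samhd1 (1.26, SE 0.28, adjusted p = 0.0348). For the other 8 members called in myotubes, a difference between the Rb effects did not pass the threshold. Without culture K 10 members were called. Without any other single culture it was 1 to 3, at 1 without A, C, D, E or J. With scan day as a block Ifi35 was called alone, the 1 member of the 4 that kept its call in all of these fits. The shares of all genes called in these fits are not given here, so the counts describe the members alone.

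Genes upstream of the program were read beside it. Of 30 listed ligands, receptors, kinases, inhibitors and sensors, 27 had a probe set and 23 were tested, and 1 was called higher between the myotube groups (7.03% of all genes were), with a median log2 difference of 0.17 (0.01 over all genes). It was the adaptor gene Myd88 (log2 1.42, SE 0.34, adjusted p = 0.0160), from 616, 156 and 494 to 997, 1385 and 1377. Without culture H or L, or with the last scan day alone, 0 of the 23 were called. Among those that did not pass were the DNA sensor gene Mb21d1 (log2 1.30, adjusted p = 0.0804), the feedback inhibitor gene Socs3 (1.08, adjusted p = 0.118) and the phosphatase gene Ptpn2 (1.02, adjusted p = 0.237). Ifnb1, the interferon beta gene, read 724, 887 and 584 in wild-type myotubes and 460, 447 and 470 in J, K and L (log2 -0.53, adjusted p = 0.424). Ifna4 stayed under the offset in each of the 12 cultures, and Ifng read 34.3 to 248 in wild-type myotubes and 52.7, 369 and 403 in J, K and L. The receptor genes Ifnar1 and Ifnar2 read 1126, 958 and 1355 and 1348, 1040 and 1510 in J, K and L, within or near the wild-type myotube ranges of 1011 to 1412 and 712 to 1239.

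Other interferon-induced genes were high in the same myotubes. Of 24 further such genes, 14 were tested and 8 were higher in Rb-flox than in wild-type myotubes (7.03% of all genes were), with a median log2 difference of 1.51 (0.01 over all genes). Parp12 (2.22), Lgals3bp (2.16), Oas2 (1.72) and Oas1a (1.58) were lowest in culture K among the 3 Rb-flox cultures, Lgals3bp at 7873, 1194 and 9661. Pml (2.55) and Ifi30 (1.77) were highest in K, Ifi30 at 2978, 5731 and 2962, though another probe set of Pml was lowest in K (1130, 219 and 1054). Of 13 antigen presentation genes, 12 were tested and 10 were higher (against the same 7.03%), among them H2-D1 (28025, 468 and 42013 in J, K and L), H2-K1, Psmb8, B2m, Psmb9 and Tap2, and Tap2 was level across J, K and L (4293, 4337 and 4222). Without culture J the counts were 4 of 14 and 5 of 12, without L 4 and 6, without wild-type culture H 5 and 7, and without I 5 and 6. For these fits too, the shares of all genes are not given here.

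Marker genes of other cells were read beside these results. Of 8 macrophage markers, 5 were tested and 0 were called between the myotube groups, and their summed intensity was 4015 to 6189 in the wild-type and 5545, 6016 and 5077 in J, K and L. Ptprc (CD45), a defining marker of blood cells, read 186, 105 and 194 in J, K and L and 130 to 156 in wild-type myotubes, near the offset of 130 that was added before taking logs. Of 7 fibroblast markers, 6 were tested and Col3a1 was called higher (log2 2.89), while Col1a1 read 1008, 80.5 and 1119 in J, K and L and 1541, 61.3 and 46.9 in G, H and I. The summed fibroblast intensity was 6058 to 9805 in the wild-type myotubes and 14667, 18055 and 10826 in J, K and L, so it was highest in K. All 4 tested markers of dividing cells were higher in the Rb-flox myotubes, summed at 20551, 24407 and 21255 in J, K and L and at 438 to 763 in the wild-type myotubes. Of 5 endothelial markers, 2 were tested and 0 were called (Tie1 was under the offset in all cultures), as for the 2 tested of 5 lymphocyte markers. Of 5 myotube markers, Ckm, the muscle creatine kinase gene whose promoter drives Cre, was called lower (log2 -2.96), and of 5 myoblast markers Cdh15 was (log2 -1.49). The summed myoblast marker intensity was 42846, 76698 and 45409 in J, K and L and 67510 to 74598 in the wild-type myotubes. It was 64087 to 68442 in the wild-type myoblasts, so the sum did not fall in wild-type differentiation. Of the 5 markers, however, 3 were called lower there (15.5% of all genes) and 1 higher (14.5%). A sum of intensities is weighted to the brightest genes, so this one does not stand for the list. The summed myotube marker intensity was 269136, 197533 and 208208 in J, K and L and 362389 to 498128 in the wild-type myotubes. The part of fibroblasts, of dividing cells or of the degree of differentiation in the interferon values was not tested.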

How the data were processed

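RNA from 12 cultures was hybridised to 24 one-colour Affymetrix arrays, 12 of MOE430A and 12 of MOE430B. The deposited values are MAS5 signal intensities, per the submitters' processing notes, and each array had been scaled by the authors to a trimmed mean of 1500. The MAS5 version is not given in the sources used here. Intensities were taken to log2 after adding an offset, the 20th percentile of each table (130 and 206), so log2 values were computed from the deposited intensities. Tests were limited to probe sets brighter than the 40th percentile of the array in 3 or more of the 12 cultures. For a gene with several, 1 was taken (names without _x or _s first, then MOE430A, then the highest mean), giving 14331 genes, 9143 from MOE430A and 5188 from MOE430B.

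All 12 cultures entered 1 limma fit (version 3.58.1, R 4.3.3, empirical Bayes with a trend), with Benjamini-Hochberg adjustment over all genes and a threshold of 0.05. The 5 comparisons share groups. The p-values measure the spread between cultures, pooled for each gene over the 4 groups, although that spread could differ between groups. For Ifi27, J, K and L lay 3.29, 1.23 and 3.55 above the wild-type myotube mean (log2), where the wild-type SD was 0.12. For Samhd1 they lay closer together, at 1.30, 1.17 and 0.96 (SD 0.24). Where the Rb-flox cultures were split, the pooled error understates their spread. Scripts in Python 3.11.15 drew the plots, and the fit was tested on simulated data. Array number limits the precision. All 38 members were described, and of other lists at most 6 called genes each by size. The members and lists were chosen with earlier results of these data known. Alternatives changed the offset, filter, normalization, probe set rule, chip fits, trend, array weights and scan-day block, or left out each culture in turn.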

Additional observations from a re-analysis of the deposited data

Results flagged for a closer look

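For 4 members the contrast of Rb-lacking with wild-type cells, called the Rb effect here, differed between myotubes and myoblasts, by limma's interaction test adjusted over all genes. Myotubes and myoblasts also differed in medium and in how Rb was removed, so stage, medium and mode of removal cannot be told apart. The log2 difference of the effects was 2.91 for Ifi35 (adjusted p = 0.00918), 2.75 for Ifi27 (adjusted p = 0.0416), 1.26 for Samhd1 (adjusted p = 0.0348) and 3.92 for Ifi202b (adjusted p = 0.0241). Ifi35, Ifi27 and Ifi202b were higher in 3 of 3 Rb-flox myotube cultures than in every wild-type myotube culture, and so was Samhd1. Ifi35 alone was still called with scan day as a block, and in each of 5 fits that left out culture A, C, D, E or J. Among the fits that left out a culture, Ifi27 kept its call only without K, and Samhd1 only without I or L. Ifi202b kept its call only without B, F, G, H or K. The Ifi27 call was also lost without the filter, under median centring and without the variance trend. Samhd1 was not called under median centring or when its probe sets were averaged. With 3 cultures a group, single cultures were not screened as outliers.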

How the results depend on the processing

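No member was called in Rb-null against wild-type myoblasts under any alternative run. In Rb-flox against wild-type myotubes, 12 members were called, 7 in the cultures of the last scan day alone, and 7 to 16 when 1 culture was left out. Ddx58, Ifi202b, Ifi27, Ifi35, Ifit1, Ifitm3 and Samhd1 kept their calls in each of these leave-outs. In wild-type differentiation, 6 were called, 2 with scan day as a block, 0 in the last scan day alone and 12 with array weights. The median log2 change there was 0.14, -0.51 under a filter at the 60th percentile, -0.0925 with the scan-day block and in the last scan day, 0.33 with array weights, and 0.0305 to 0.33 without 1 culture. In Rb-flox myotubes against Rb-null myoblasts, 15 were called, 0 with the scan-day block, where Ifit3 turned to -0.29, and 9 to 17 without 1 culture, with medians of 0.84 to 1.74. For the difference of the Rb effects, 4 were called, 2 under median centring, 1 with the scan-day block, 10 with array weights and 1 to 10 without 1 culture, with medians of 0.76 to 1.42. The type I style median of culture L was 1.16 with the offset at the 40th percentile. The median of the 5 GTPases was 0.93 in B, 1.75 in G, 0.82 in H and 2.83 in J with an offset of 16, 1.11 in J and 1.20 in L with the offset at the 40th percentile, and 0.32 in K with probe sets averaged. Leaving out 1 wild-type myoblast culture gave it ranges of 0.46 to 0.98 in I, 0.70 to 1.36 in K and 1.62 to 2.28 in L. With 1 fixed base of the ISRE core free, 75.0% of member genes held it, against 34.7% of all genes. The shares of all genes called in the alternative fits are not given here, so their counts describe the members alone. The cause of these shifts was not tested. No paired analysis was possible because no culture letter occurs in more than 1 group.

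The number of cultures, 3 a group, limits the precision. The filter on dim signal left 9 members untested, and the offset understates changes of dim genes. Of the myoblasts, only culture B was scanned with the myotubes, so comparisons between myoblasts and myotubes carry that limit, while both myotube groups were scanned on 1 day.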

Other observations

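Some interferon-induced genes, chosen after their values were seen, were high in Rb-flox cultures J and L and low in K, while others such as Ifi30 were highest in K. Cxcl10, Ccl5 and Irgm2, given first, were dim and outside the tests. Cxcl10, a chemokine gene, read 981, 76.3 and 392 in J, K and L and at most 150 in the other 9 cultures. Ccl5, another chemokine gene, read 2630, 92.6 and 976, with 414 in wild-type myotube culture G. Irgm2, a GTPase of the Irgm family, read 1089, 51.2 and 1037, with 307 in wild-type myotube culture I. Rtp4, which passed the filter, read 4259, 151 and 3647 against 192 to 400 in the wild-type myotubes.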
